A study of Mus musculus with 24 samples.

Results

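The genes described here encode the microtubule motors and their close partners: the kinesins, the kinesin light chains, the subunits of cytoplasmic dynein and those of dynactin. They were taken by name, as every row whose symbol began with Kif and a digit or c, with Klc, Dync1, Dync2 or Dynl, or with Dctn and a digit. The rule gave 67 genes, of which 66 were among the 17501 genes of the table for mouse embryonic stem cells (mESC) and 67 among the 16024 of the table for neural progenitor cells (NPC). By role they were 13 mitotic kinesins, 7 genes of kinesin-1, 14 other transport kinesins, 10 kinesins of cilia, of microtubule disassembly or of other uses, 5 genes of dynein-1, 2 of dynein-2, 9 dynein light chains and 6 of dynactin. The symbol Kif1bp also fits the rule, but that gene encodes a protein that binds kinesins and is no motor, so it was kept apart.

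The series compared mouse lines with different forms of Htt, the gene of huntingtin, whose CAG repeat is expanded in Huntington's disease. In each of 2 cell types there were 6 groups of 2 RNA sequencing libraries: wild type cells (WT), cells labelled as lacking Htt (KO), and knock-in lines, heterozygous at Hdh, with 20, 50, 92 or 111 CAG repeats (Q20, Q50, Q92 and Q111), Hdh being the older name of Htt. The mESC were grown with leukaemia inhibitory factor on irradiated mouse feeder fibroblasts. The NPC were derived from mESC in N2B27 medium and then expanded on laminin with FGF and EGF. For 1 line the sample titles name 92 repeats while the growth protocol and the table headers name 89, and 92 was used. Each repeat length was a single line in each cell type, so repeat length and line cannot be told apart, and a knock-in line still carried a normal allele beside the altered one. The submitters call the libraries of a group biological samples without saying whether they came from separate cultures. In comparisons of groups, p-values therefore measure the spread between these libraries, which may be technical. Where levels were fitted on repeat length, p-values also take in the distance of the lines from a straight line. That fit counts the 2 libraries of a line as separate points.

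Kinesins and dyneins turn the energy of ATP into steps along microtubules, most kinesins toward the growing plus end and dynein toward the minus end. Transport kinesins carry vesicles, mitochondria and RNA. Mitotic kinesins build the spindle, move chromosomes and divide the cell, and their transcripts are made mainly in dividing cells. Dynein needs dynactin to move cargo over long distances. Huntingtin is known as a scaffold for dynein, dynactin and kinesin-1 on the same vesicles, in part through adaptors. The question that these data allow is which of the motor genes differed in transcript level between the Htt genotypes, in stem cells and in progenitors.

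Levels are deposited expression values named CPM, that is read counts scaled by the authors in a way not given in the sources used here. Differences are log2 differences of CPM + 1, which understate the change of low genes. Genes are said to be called where limma gave a Benjamini-Hochberg adjusted p below 0.05, over the genes that reached 1 CPM in 2 or more libraries of their cell type. All 66 members of the mESC table passed that filter, as did 63 of 67 in NPC; Dync1i1, Dynlrb2, Kif27 and Kif28 did not. A library held between 58546211 and 81502284 recovered reads in mESC, and between 48525333 and 118038952 in NPC. Htt itself was at 124 and 113 CPM in WT and 139 and 68.5 in KO in mESC, so the library labelled KO replicate 1 was not lower than WT, and every direction given for the mESC knockout rests on that label. In NPC Htt was at 137 and 177 CPM in WT and 100.1 and 94.9 in KO, and both KO libraries were below both WT libraries, with the gene short of the threshold (log2 difference -0.67 ± 0.14 SE, limma adjusted p = 0.0673).

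Several NPC libraries stood apart in genes of cell identity. The Q20 libraries held Pou5f1, a pluripotency factor, at 90.1 and 87.4 CPM, while the other 10 NPC libraries were at most 0.405, and they held the neuronal gene Stmn2 at 103 and 128. The 5 pluripotency markers in the NPC table summed to 108 and 106 CPM in Q20 and to between 4.72 and 26.5 in the others. Summed levels of the 6 astrocyte markers were 2302 and 2031 CPM in Q20 against 284 and 274 in Q111. Those of the 8 fibroblast markers were highest in Q50 (1010.5 and 1072 CPM) and lowest in Q111 (121 and 126). The 9 neuron markers summed to 819 and 988 CPM in Q20 and to 1643 and 1265 in WT. Map2 made up most of the sum in replicate 1 of both, at 599 CPM in Q20 and 1593 in WT. Taken singly, 8 of the 9 were higher in Q20 than in WT (median log2 difference 0.98). By limma 5 were called higher and 1 lower, against 9.97% and 4.57% of all genes. Of the 8 progenitor markers in the table, which include Nes and Vim, the sum ran from 3999 CPM in a Q20 library to 9362 in a Q50 library, with Sox1 listed at 0 in 2 of the 12 libraries. In mESC the 7 pluripotency markers in the table summed to between 1992 and 3772 CPM, and the 7 fibroblast markers to between 19.3 and 93.4. From bulk RNA, fewer cells of a type and less RNA per cell cannot be told apart, and the part that these shifts have in the results on motor genes was not tested.

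Promoter letters are shown first, because short motifs of cell cycle genes were found at unequal rates in the windows of mitotic kinesins and of transport motors. RefSeq promoter windows (GRCm38.p6, 250 bases before to 50 after each start, both strands read) were at hand for 49 of the 67 genes, in 56 windows. The cell cycle homology region (CHR, searched as TTTGAA or TTCGAA), known from promoters of genes switched on late in the cell cycle, was present in 11 of 12 mitotic kinesin windows (91.7%), against 19.2% of all 32851 windows. It was in 1 of 16 windows of kinesin-1 and the other transport kinesins (6.25%) and in 2 of 18 of dynein and dynactin (11.1%). CCAAT, the letters of the CCAAT box and not overlapping in sequence with the CHR, was in 8 of the 12 mitotic windows (66.7%) and 37.4% of all. Both were present in 8 of the 12 (66.7%), 7.52% of all windows, 0 of the 16 transport kinesin windows and 1 of the 18 of dynein and dynactin. Kifc1 and Kifc5b, near-identical copies, count separately among the 12 mitotic windows, and each held both motifs. Among the 10 windows of the kinesins of other uses, those of Kif24, Kif26b and Kif27 also held both. The lines below give, 5′ to 3′ on the gene's strand, bases -120 to -1 before the start for 4 mitotic kinesins and for 3 other motor genes as a contrast, with 30 bases across the start for Kif23 (from -20) and Kif20b (from -10); capitals mark CHR and CCAAT matches on either strand.
Kif11, chr19:37376262-37376381, plus strand: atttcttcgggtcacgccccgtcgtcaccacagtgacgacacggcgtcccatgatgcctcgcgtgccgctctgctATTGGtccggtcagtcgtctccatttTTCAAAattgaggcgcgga
Kif15, chr9:122950961-122951080, plus strand: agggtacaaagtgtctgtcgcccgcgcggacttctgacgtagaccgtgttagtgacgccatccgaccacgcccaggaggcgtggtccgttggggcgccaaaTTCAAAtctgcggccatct
Kif22, chr7:127042421-127042540, minus strand: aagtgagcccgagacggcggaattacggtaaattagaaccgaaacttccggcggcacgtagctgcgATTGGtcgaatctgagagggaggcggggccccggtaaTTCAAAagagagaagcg
Kif2c, chr4:117178773-117178892, minus strand: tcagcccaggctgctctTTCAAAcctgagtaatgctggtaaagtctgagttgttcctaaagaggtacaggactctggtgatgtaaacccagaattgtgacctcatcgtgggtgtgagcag
Kif23, chr9:61946790-61946819, minus strand: caggcggccgctgATTGGcctgTTTGAAat
Kif20b, chr19:34922348-34922377, plus strand: gcgccgagccgccattgTTTGAATTTGAAa
Kif5c, chr2:49619166-49619285, plus strand: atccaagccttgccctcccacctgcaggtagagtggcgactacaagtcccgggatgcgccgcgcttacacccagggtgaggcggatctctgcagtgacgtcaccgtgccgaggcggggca
Klc4, chr17:46646081-46646200, minus strand: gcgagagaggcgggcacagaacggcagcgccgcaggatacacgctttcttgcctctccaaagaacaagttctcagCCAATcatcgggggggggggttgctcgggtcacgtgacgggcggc
Dync1h1, chr12:110601275-110601394, plus strand: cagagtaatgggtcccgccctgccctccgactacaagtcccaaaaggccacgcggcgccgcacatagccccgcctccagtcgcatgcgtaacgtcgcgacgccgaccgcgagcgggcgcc
In Kif11 and Kif15 the CHR match began 19 bases before the start, in Kif22 17 and in Kif2c 103. In Kif23 it began at base 3 of the transcript, and Kif20b held 2 abutting matches from bases 8 and 14. The CCAAT match of Kif11 lay 45 bases before the start, as did the nearer of the 2 in Klc4, a light chain gene of kinesin-1 without a CHR match. No match was found in the stretches of Kif5c or Dync1h1. Kif18a was the mitotic kinesin whose window held no CHR match, and Kif20a had no window. A match is a description of the letters and not a site or a cause.

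In NPC, the mitotic kinesins rose with repeat length across the knock-in lines. All 13 were called as rising over the 91 repeats between Q20 and Q111, with a median log2 change of 0.99 (range 0.67 to 1.52), while the median of all 13206 genes tested was 0.04 and 12% of them were called as rising. Among all motor genes, 28 of 63 were called, 17 rising and 11 falling, against 22% of all genes (12% rising, 10.1% falling), and 13 of the 17 that rose were mitotic kinesins. Of the 63, 16 were called without Q20 replicate 1, 16 without Q20 replicate 2 and 18 without Q111 replicate 1. In every one of the 13, both Q111 libraries were above both Q20 libraries, which was so for 40.3% of all genes, and the ratio of the group means ran from 1.42 in Kif22 to 2.90 in Kif18a. The group means rose at each step from Q20 to Q111 in 7 of the 13, against 8.5% of all genes tested.

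Kif11 encodes the motor that pushes spindle poles apart, and it was at 138 and 311 CPM in WT, 142 and 422 in KO, 152 and 162 in Q20, 207 and 216 in Q50, 311 and 257 in Q92 and 375 and 381 in Q111. Every step from Q20 to Q111 was upward in the group means. The slope of Kif11 was 1.19 ± 0.13 SE, limma adjusted p = 0.00112. Kif18a, whose product shortens microtubules at chromosomes to dampen their movement, was at 52.7 and 61.1 CPM in Q20, 82.8 and 85.5 in Q50, 144 and 129 in Q92 and 159 and 171 in Q111. The slope of Kif18a was 1.52 ± 0.12 SE, limma adjusted p = 0.000634. Kif4 encodes a chromosome-bound kinesin of the central spindle and was at 94.9 and 93.1 CPM in Q20, 117 and 123 in Q50, 157 and 170.4 in Q92 and 199.9 and 198 in Q111. The slope of Kif4 was 1.05 ± 0.10 SE, limma adjusted p = 0.000838. For these 3 genes no Q111 library overlapped a Q20 or Q50 library. They had the smallest limma p of the mitotic kinesins in the trend, and the share of all genes separated in this way was not counted.

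The mitotic kinesins Kif23, Kif20b, Kif2c and Kifc1 were higher in Q92 and Q111, with no upward step shared by all of them between Q20 and Q50. Kif23, a subunit of the centralspindlin complex that organises the cleavage furrow, was at 69.2 and 69.1 CPM in Q20, 62.4 and 75.1 in Q50, 131 and 116 in Q92 and 144 and 142 in Q111. The slope of Kif23 was 1.16 ± 0.18 SE, limma adjusted p = 0.00417. Kif20b, which acts in the last step of cell separation, was at 64.4 and 75.3 CPM in Q20, 69.3 and 72.8 in Q50, 131 and 119 in Q92 and 133 and 140.4 in Q111. The slope of Kif20b was 1.09 ± 0.16 SE, limma adjusted p = 0.0038. Kif2c, whose product takes apart microtubule ends at kinetochores, was at 90.5 and 99.8 CPM in Q20, 88.9 and 98.4 in Q50, 164 and 150.2 in Q92 and 178 and 174 in Q111. The slope of Kif2c was 0.99 ± 0.16 SE, limma adjusted p = 0.00495. In these 3 genes the Q20 and Q50 libraries lay in the same range and the Q92 and Q111 libraries above them. Kifc1, a minus-end motor that bundles spindle poles, was at 58.4 and 49.6 CPM in Q20, 51.1 and 62.8 in Q50, 69.2 and 84.5 in Q92 and 93 and 89.2 in Q111. The slope of Kifc1 was 0.77 ± 0.16 SE, limma adjusted p = 0.0136, and Kifc1 and Kifc5b are near-identical copies whose reads may have been split between them. The other mitotic kinesins had slopes from 0.67 in Kif22, which binds chromosome arms, to 1.16 in Kif15, a spindle motor that can stand in for Kif11. Kif2a, a kinesin of microtubule disassembly, was counted with the kinesins of other uses. Its slope of 0.56 ± 0.20 SE, limma adjusted p = 0.0747 was not called. Against Q20, Kif2a was called higher in Q111 (0.74, limma adjusted p = 0.0261) and not in Q92 (0.17, limma adjusted p = 0.537).

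The WT and KO progenitors could not be placed in this order, since their own replicates were far apart. All 13 mitotic kinesins were higher in replicate 2 than in replicate 1 in both genotypes, by 2.20-fold to 3.00-fold (median 2.51) in WT and by 1.53-fold to 2.97-fold (median 2.33) in KO. Over all genes tested, 14% were at least doubled in this way in WT and 7.5% in KO. In the knock-in lines the same ratio had medians between 0.942 (Q92) and 1.11 (Q50). Kif11, for example, was at 138 and 311 CPM in WT, a span that held the Q20 and Q50 libraries and lay below both Q111 libraries. Of the 104 knock-in values of these genes, 83 lay between the 2 WT libraries, and for 6 genes all 8 did. The 20 listed mitotic genes outside the symbol rule, such as Mki67 and Cenpe, were summed as well, although Cenpe encodes a kinesin motor. They came to 2699 and 7189.5 CPM in WT, 2808 and 7567 in KO, 3293 and 3425 in Q20, 3801 and 4299 in Q50, 6229 and 5759 in Q92 and 8233 and 8440.0 in Q111. Of these, 19 of 20 were called as rising with repeat length (median 1.18), against 12% of all genes.

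The shared spread of WT and KO also entered the tests of single lines. Against Q20, with the spread of all 12 NPC libraries, 1 mitotic kinesin of 13 was called in Q111 (Kif18a, log2 difference 1.52 ± 0.42 SE, limma adjusted p = 0.0298) and 0 in Q92, where 1 had an unadjusted p under 0.05 and edgeR also called 0. The Kif18a call was lost when any of the 4 libraries of Q111 or Q20 was left out. With the 4 libraries of Q111 and Q20 alone, 13 of 13 were called higher, against 50.8% of all genes, and with those of Q92 and Q20 10 of 13 were, against 46.6%. For the slope, 8 of the 13 were called with the replicate number as a block and 7 to 12 when a knock-in library was left out, the lowest count coming without Q20 replicate 2 or Q111 replicate 1. Without the Q20 line 11 were called, against 14.2% of all genes, with a median of 1.39, and with 1 mean value per line 0 were.

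**Figure D1:**
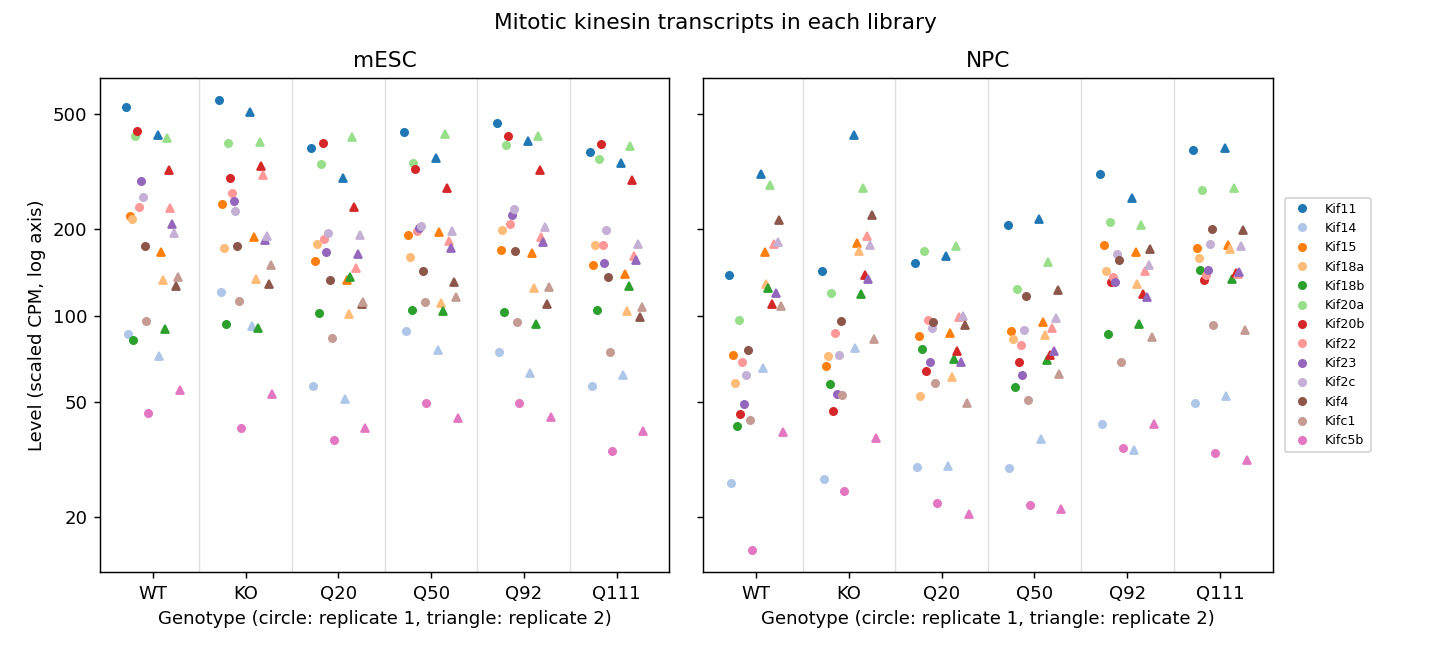
Level of each of the 13 mitotic kinesins in every library (vertical log axis: scaled CPM; horizontal axis: genotype; circles replicate 1, triangles replicate 2), in mESC at the left and NPC at the right. In NPC the WT and KO pairs are split in all 13 genes, and both Q111 libraries lie above both Q20 libraries. Group means rise at each step from Q20 to Q111 in 7 of the 13. The tables of the cell types were scaled separately.

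Kinesin-1, a pair of heavy chains with a pair of light chains, moves vesicles and mitochondria along axons and in other cells. Kif5b is its widely expressed heavy chain, and Kif5a and Kif5c are enriched in neurons. In NPC the heavy chain genes went in opposite directions over the knock-in lines. Kif5a was at 21.8 and 17.3 CPM in WT, 20.8 and 10.3 in KO, 31.5 and 27.6 in Q20, 7.14 and 6.68 in Q50, 3.80 and 3.58 in Q92 and 2.82 and 3.44 in Q111. It was highest in Q20 and lowest in Q92 and Q111, with no overlap between Q20 and the longer repeats. The slope of Kif5a was -2.74 ± 0.41 SE, limma adjusted p = 0.0038. Kif5b was at 488 and 579 CPM in WT, 672 and 575 in KO, 372 and 374 in Q20, 596 and 575 in Q50, 687 and 631 in Q92 and 681 and 697 in Q111, lowest in both Q20 libraries. The slope of Kif5b was 0.82 ± 0.17 SE, limma adjusted p = 0.0123. Kif5c was at 21.2 and 14.5 CPM in WT, 19.3 and 10.8 in KO, 104 and 103 in Q20, 27.6 and 21.3 in Q50, 22.3 and 20.4 in Q92 and 36.1 and 35.4 in Q111. Both Q20 libraries were far above the other 10, and the slope of -1.44 ± 0.61 SE, limma adjusted p = 0.126 was not called.

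Over the 7 genes of kinesin-1, 4 were called in the trend, against 22% of all genes. These were Kif5b rising and Kif5a, Klc3 and Klc4 falling, and the median slope of the 7 was -1.34. Klc4, a light chain gene, was at 36.5 and 22.3 CPM in WT, 32.5 and 17 in KO, 37.2 and 32.5 in Q20, 21.4 and 22.7 in Q50, 17.2 and 16.8 in Q92 and 12.7 and 11.3 in Q111 and its group means fell at each step from Q20. The slope of Klc4 was -1.34 ± 0.19 SE, limma adjusted p = 0.00303. Klc3, a light chain best known from sperm, was at 1.72 and 2.77 CPM in WT, 2.48 and 2.91 in KO, 8.37 and 7.88 in Q20, 2.78 and 4.06 in Q50, 1.87 and 2.36 in Q92 and 0.988 and 0.808 in Q111, with the Q20 libraries above and the Q111 libraries below all others. The slope of Klc3 was -2.06 ± 0.27 SE, limma adjusted p = 0.00237. Klc1, the main light chain of brain, ranged over 135 to 189.5 CPM (slope -0.04 ± 0.12 SE, limma adjusted p = 0.85). Klc2 ranged over 14.8 to 31.4 CPM (slope -0.63 ± 0.27 SE, limma adjusted p = 0.124); neither was called. Klc1 and Klc3 overlap Xrcc3 and Ercc2 on the other strand, and the use of strand in counting is not given in the sources used here, so their reads are uncertain.

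Much of the kinesin-1 result rested on the Q20 libraries. Against WT, 8 motor genes were called in Q20, 7 higher and 1 lower, against 14.5% of all genes (9.97% higher, 4.57% lower). Without Q20 replicate 1 the count was 4, and without WT replicate 1 it was 13. Among kinesin-1 these were Kif5c (log2 difference 2.49 ± 0.28 SE, limma adjusted p = 0.000543), Klc3 (1.51, adjusted p = 0.00203) and, lower, Kif5b (-0.51, adjusted p = 0.0289). Against Q20, Kif5a differed by -1.95 (adjusted p = 0.00262) in Q50, -2.70 (adjusted p = 0.000357) in Q92 and -2.89 (adjusted p = 0.00029) in Q111. Kif5c differed by -2.05 (adjusted p = 0.00142), -2.23 (adjusted p = 0.000761) and -1.51 (adjusted p = 0.00612), all limma values that share the Q20 libraries. With WT in place of Q20 as the reference the Kif5c differences turned to 0.44, 0.27 and 0.99, while those of Kif5a kept their sign at -1.37, -2.12 and -2.31 (limma adjusted p = 0.0321, 0.00514 and 0.00227). Without the Q20 line the slope of Kif5a was -1.44 (limma adjusted p = 0.0335) and that of Klc3 -1.68 (adjusted p = 0.0405), both still called, while Kif5b and Klc4 were no longer called. The Q20 libraries are those that held Pou5f1, Stmn2 and Aqp4 (an astrocyte water channel, 253 and 247 CPM), and the part of such cells in the level of Kif5c was not tested.

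**Figure D2:**
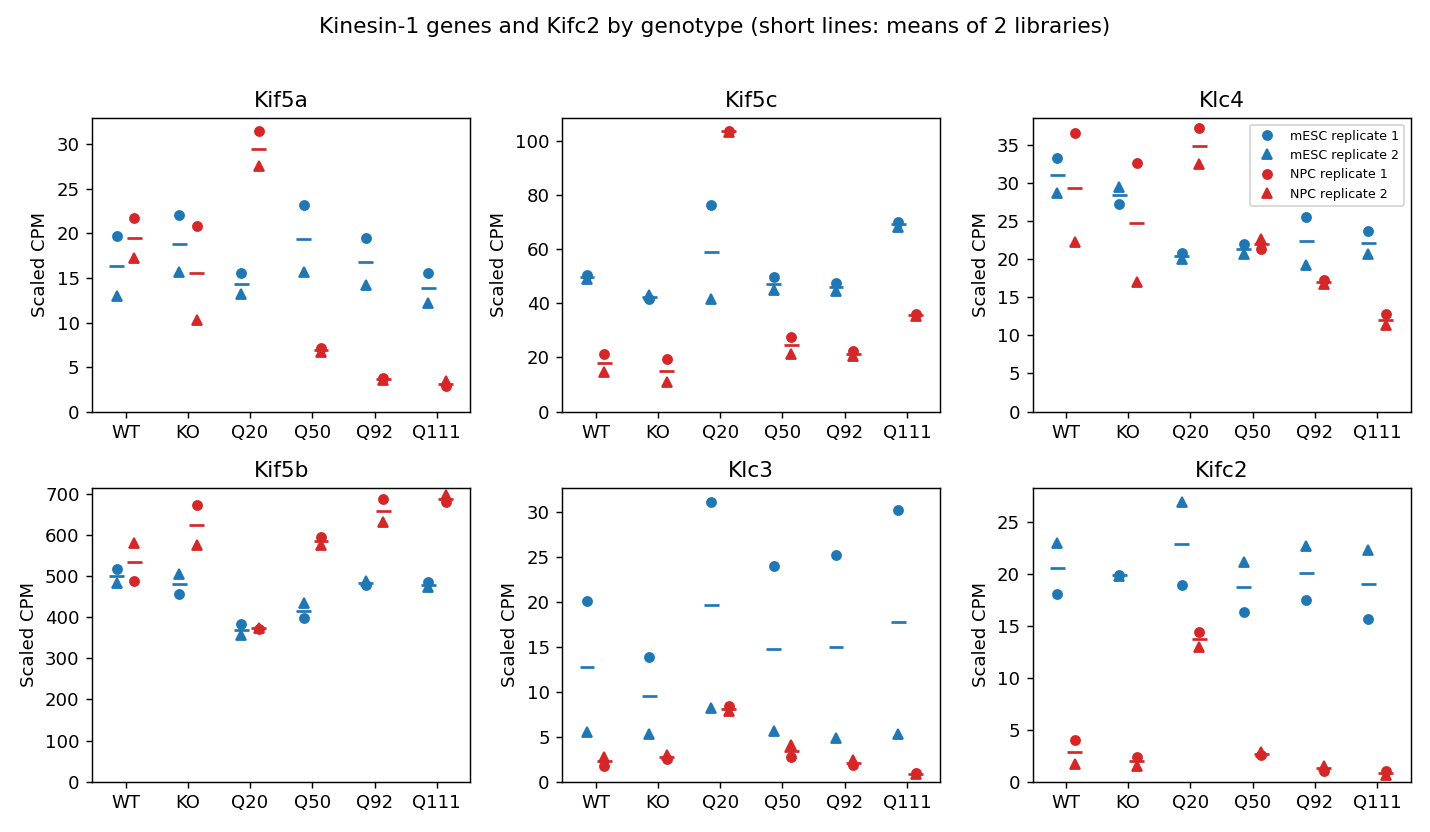
Level in every library of 5 kinesin-1 genes and of Kifc2 (vertical axes from 0: scaled CPM; horizontal axis: genotype; blue mESC, red NPC; circles replicate 1, triangles replicate 2; short lines means of 2 libraries). In NPC, Kif5c and Kifc2 stand high in Q20 alone, Kif5a and Klc4 fall from Q20 to Q111 and Kif5b is lowest in Q20; levels of mESC and NPC come from separately scaled tables.

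Per kilobase of exon, Kif5b was the main heavy chain transcript in every library, and the makeup of kinesin-1 differed in Q20. In NPC, Kif5c made up 22.1% and 22.2% of the summed heavy chain level (CPM per kilobase) in the Q20 libraries and 2.01% to 5.58% in the other 10. Kif5a made up 6.87% and 6.05% in Q20, 4.63% and 3.20% in WT and 0.444% and 0.531% in Q111. In mESC, Kif5c ranged from 8.40% to 17.5% and Kif5a from 2.48% to 5.52%. Among light chains, Klc1 led in NPC with 57.4% to 76.8% of the sum per kilobase, lowest in Q20 replicate 1, while in mESC it took 20.8% to 35.5% beside Klc4 with 24.7% to 43.2%. The mESC share of Klc3 was 21.9% and 7.48% in the WT libraries and 31.3% and 8.23% in those of Q111, with replicate 1 the higher in all 6 genotypes. Exon lengths count every annotated exon, so a share can be off where a gene uses few of its isoforms.

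**Figure D3:**
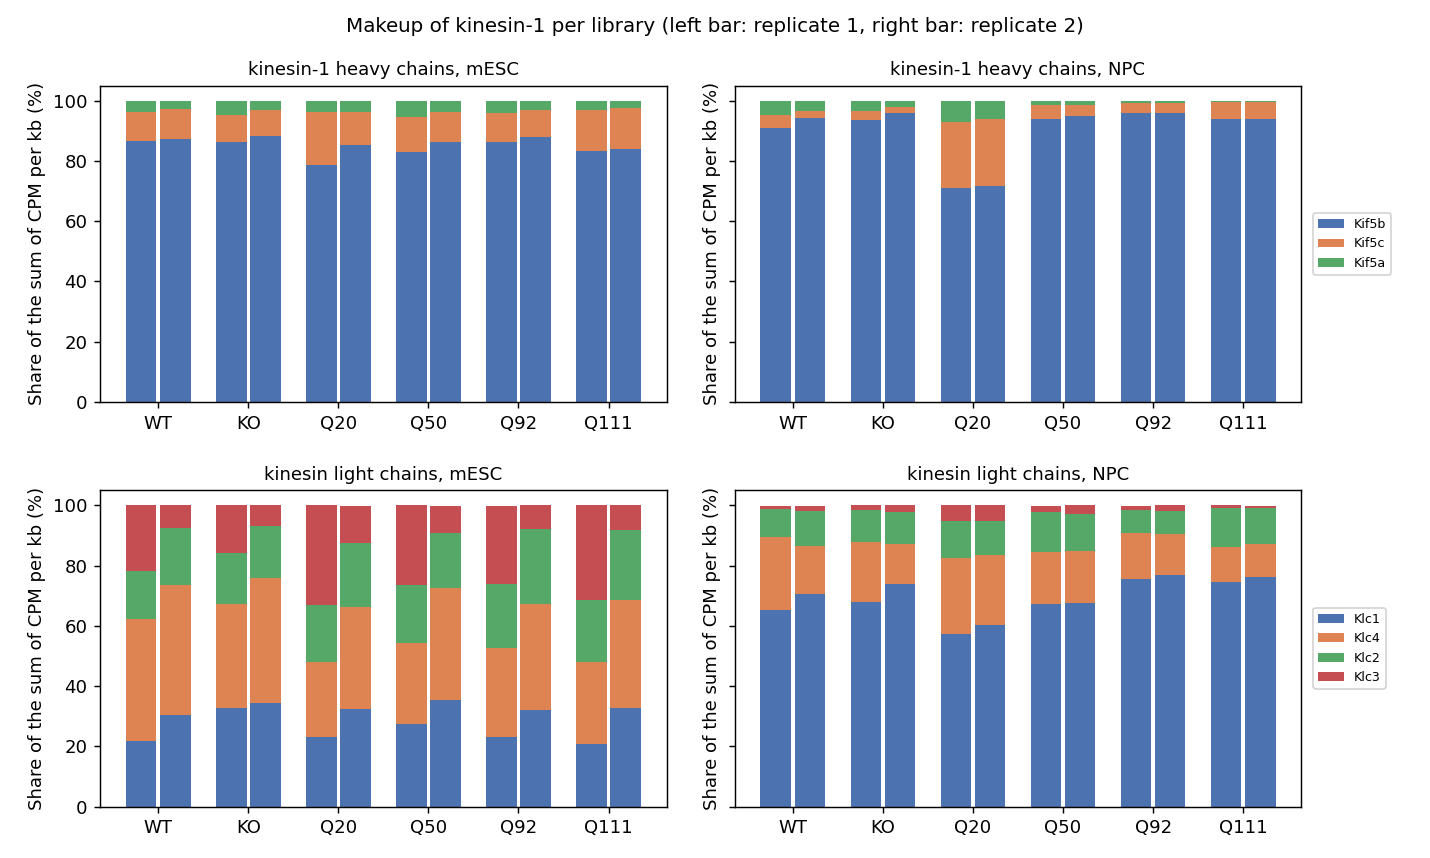
Share of each gene in the summed level per kilobase of exon (vertical axis, %) of the kinesin-1 heavy chains (top) and light chains (bottom), in mESC (left) and NPC (right); the bars of each genotype are replicates 1 and 2. The NPC Q20 bars hold the largest Kif5c share, 22.1% and 22.2%, and Klc3 is split between replicates in mESC.

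Among the other 14 transport kinesins, 4 were called in the NPC trend, Kifc3 rising and Kifc2, Kif16b and Kif21a falling, against 22% of all genes, and the median slope was -0.38. Without the Q20 line only Kifc2 of these 4 was still called. Kifc2, a minus-end kinesin found mostly in neurons, was at 4.03 and 1.73 CPM in WT, 2.41 and 1.47 in KO, 14.5 and 13 in Q20, 2.55 and 2.86 in Q50, 0.991 and 1.55 in Q92 and 1.04 and 0.638 in Q111, high in the Q20 libraries only. The slope of Kifc2 was -2.82 ± 0.42 SE, limma adjusted p = 0.00369. Kif16b, which carries early endosomes, was at 38.6 and 32.9 CPM in WT, 31.7 and 28.4 in KO, 45.3 and 43.7 in Q20, 32.1 and 33.2 in Q50, 28 and 29.4 in Q92 and 23.8 and 24.9 in Q111, and its Q20 libraries were above and its Q111 libraries below all others. The slope of Kif16b was -0.77 ± 0.15 SE, limma adjusted p = 0.00998. Kif21a, a kinesin-4 that restrains microtubule growth, was at 172 and 62.9 CPM in WT, 42.1 and 28.3 in KO, 93.2 and 91 in Q20, 38.9 and 40.8 in Q50, 41.9 and 35.7 in Q92 and 34.5 and 35.2 in Q111; its WT libraries were further apart than those of any other group. The slope of Kif21a was -1.20 ± 0.29 SE, limma adjusted p = 0.0228. Kifc3, a minus-end motor tied to cell junctions, was at 16 and 28.1 CPM in WT, 51.7 and 38.6 in KO, 33.3 and 28.9 in Q20, 35 and 35.3 in Q50, 45 and 46.2 in Q92 and 56.6 and 46.1 in Q111, lowest in WT replicate 1. The slope of Kifc3 was 0.71 ± 0.15 SE, limma adjusted p = 0.0122. Kifc2 overlaps Cyhr1, which leaves its reads uncertain.

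For the transport kinesins outside kinesin-1 described next, no slope over the 4 lines was called, and for 2 of them the call depended on the Q20 line. Kif1a, the kinesin-3 of synaptic vesicle precursors, was at 451 and 350.1 CPM in WT, 543 and 419 in KO, 371 and 352 in Q20, 595 and 657 in Q50, 219 and 231 in Q92 and 231 and 237 in Q111, highest in Q50 and lowest in Q92 and Q111. Against Q20 it was called higher in Q50 (log2 difference 0.79 ± 0.16 SE, limma adjusted p = 0.0112) and lower in Q92 (-0.68 ± 0.16 SE, limma adjusted p = 0.0168) and Q111 (-0.63 ± 0.16 SE, limma adjusted p = 0.0233). The Kif1a slope of -1.03 ± 0.40 SE, limma adjusted p = 0.098 was not called, but without the Q20 line it was -2.29 ± 0.36 SE, limma adjusted p = 0.0156. Kif21b, a kinesin-4 of dendrites, was at 351 and 264 CPM in WT, 498 and 211 in KO, 197 and 193 in Q20, 305 and 297 in Q50, 151 and 146 in Q92 and 125 and 127 in Q111, with the KO libraries furthest apart. The slope of Kif21b was -0.85 ± 0.31 SE, limma adjusted p = 0.083, and without the Q20 line it was -1.92 ± 0.17 SE, limma adjusted p = 0.00787. Kif1b, a carrier of mitochondria and vesicles, ranged over 367 to 564 CPM. The slope of Kif1b was -0.27 ± 0.13 SE, limma adjusted p = 0.173. Kif13a, which moves vesicles from the Golgi and endosomes, ranged over 135 to 265 CPM (slope -0.35 ± 0.17 SE, limma adjusted p = 0.168), lowest in both Q111 libraries at 135 and 136. Kif3a, a subunit of the kinesin-2 that builds cilia, ranged over 56.6 to 115 CPM. The slope of Kif3a was -0.41 ± 0.17 SE, limma adjusted p = 0.109. Kif17, a kinesin-2 of dendrites and cilia, was called lower than Q20 in Q50 (-0.84, adjusted p = 0.0409) and Q111 (-1.11, adjusted p = 0.011), at 2.68 and 1.49 CPM in Q20 and 0.311 and 0.496 in Q111; it overlaps Sh2d5 and is low throughout. For Kif17 in Q50, the call was lost in 7 of 11 alternative settings. With WT in place of Q20, which is another comparison, the difference was -0.026 (limma adjusted p = 0.977).

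Of the 8 tested kinesins of other uses, 6 were called in the NPC trend, against 22% of all genes (12% rising, 10.1% falling). These were Kif24 rising and Kif19a, Kif26a, Kif26b, Kif6 and Kif9 falling, and the median slope of the 8 was -1.16. Kif6 and Kif9 were no longer called without the Q20 line, and the 5 that fell stayed at or below 13.6 CPM in every library. Kif26a, a kinesin without motor activity that takes part in enteric nerve development, was at 0.368 and 0.675 CPM in WT, 0.562 and 0.618 in KO, 9.21 and 9.72 in Q20, 2.09 and 1.83 in Q50, 1.24 and 0.954 in Q92 and 0.745 and 0.595 in Q111. Both Q20 libraries were above the other 10 (Q20 against WT, log2 difference 2.79 ± 0.15 SE, limma adjusted p = 1.02e-05). The slope of Kif26a was -2.43 ± 0.39 SE, limma adjusted p = 0.00483. Set against WT in place of Q20, the Kif26a differences turned to 0.97 in Q50, 0.47 in Q92 and 0.14 in Q111. Kif26b, its close relative, was at 1.09 and 0.761 CPM in WT, 1.67 and 0.962 in KO, 3.68 and 2.83 in Q20, 1.91 and 1.54 in Q50, 0.710 and 1.06 in Q92 and 0.758 and 0.482 in Q111. The slope of Kif26b was -1.36 ± 0.22 SE, limma adjusted p = 0.00503. Kif19a, which shortens cilia, was at 13.6 and 1.69 CPM in WT, 7.04 and 2.50 in KO, 7.24 and 5.92 in Q20, 2.51 and 2.86 in Q50, 1.85 and 1.78 in Q92 and 0.406 and 0.780 in Q111. Its slope of -2.0 ± 0.28 SE (limma adjusted p = 0.00299) came with WT libraries that were far apart. Kif24, which removes cilia before division, was at 21.9 and 21.8 CPM in Q20, 18.6 and 17.7 in Q50, 38.2 and 29.9 in Q92 and 35.4 and 37.9 in Q111 in the knock-in lines (slope 0.90 ± 0.24 SE, limma adjusted p = 0.0337), higher in Q92 and Q111. Kif7, the kinesin of Hedgehog signalling in the cilium, ranged over 35.2 to 60.3 CPM (slope 0.03 ± 0.17 SE, limma adjusted p = 0.928) and overlaps Ticrr on the other strand. Kif27, its relative, stayed below the filter at 0.248 to 0.986 CPM. The 6 multiciliated cell markers summed to between 10.7 and 33.7 CPM in the NPC libraries.

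**Figure D4:**
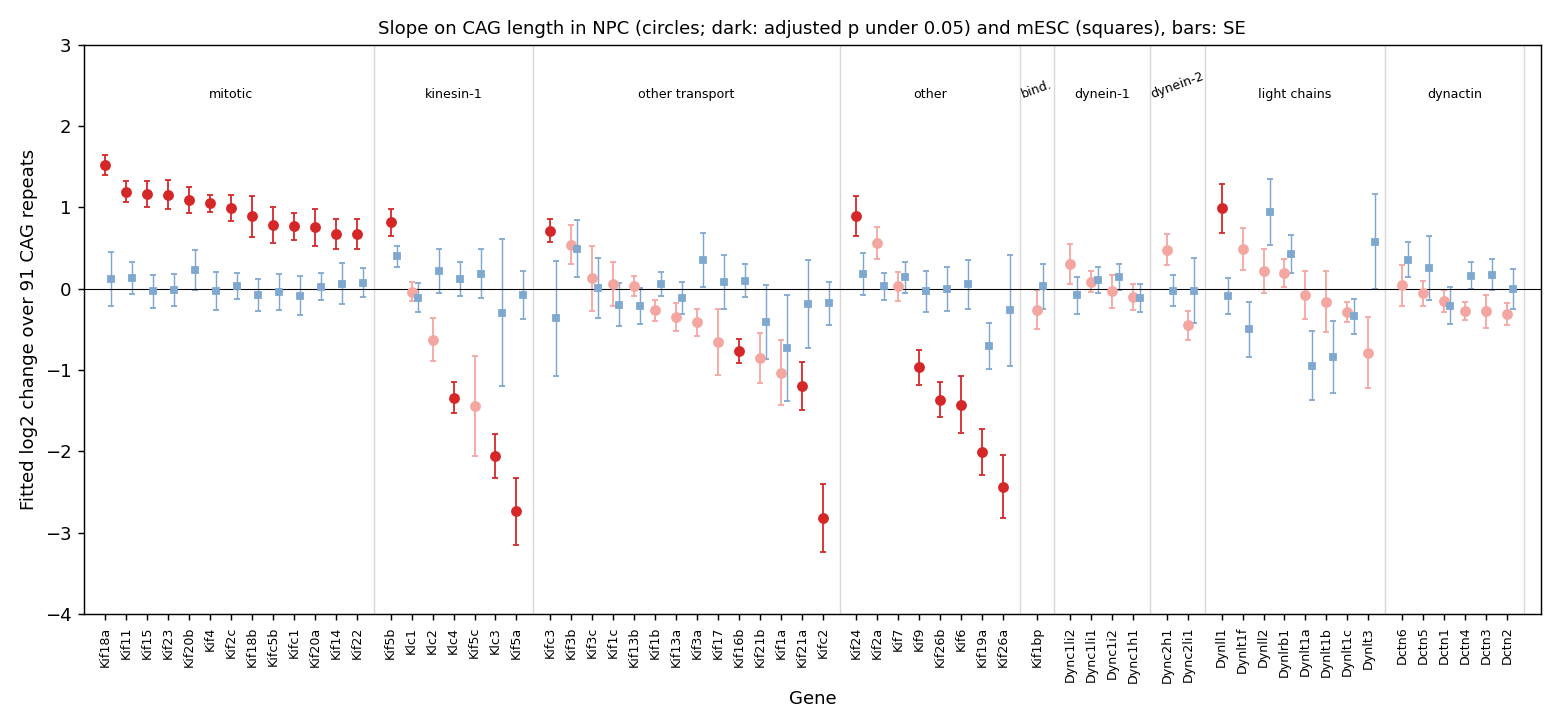
Fitted log2 change of each motor gene over 91 CAG repeats (vertical axis) in NPC (circles, dark where the adjusted p was under 0.05) and mESC (squares); bars are SE, and genes (horizontal axis) are grouped by role, with bind. for Kif1bp. The 13 mitotic kinesins lie between 0.67 and 1.52 in NPC and near 0 in mESC, the dark genes that fall are kinesins and kinesin light chains, and no dynein-1 or dynactin gene is dark.

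Dynein-1 is the cytoplasmic dynein of transport and spindle positioning. In the NPC trend limma called 0 of its 4 tested genes, against 22% of all genes, and 0 had an unadjusted p under 0.05. edgeR called 0, against 20.7% of all genes, and the median slope of the 4 was 0.03. Without the Q20 line limma called Dync1i2 as falling (-0.66 ± 0.16 SE, limma adjusted p = 0.0493). Dync1h1, the heavy chain that holds the motor, was at 2005 and 1597 CPM in WT, 2181 and 1516 in KO, 1539 and 1532 in Q20, 1632 and 1704 in Q50, 1662 and 1622 in Q92 and 1376 and 1414 in Q111 in NPC, with WT and KO split by replicate and the knock-in lines within that range apart from Q111. The slope of Dync1h1 was -0.10 ± 0.16 SE, limma adjusted p = 0.684. Dync1i2, the intermediate chain of most cells, was at 259 and 225 CPM in WT, 235 and 241 in KO, 202 and 213 in Q20, 281 and 316 in Q50, 241 and 222 in Q92 and 221 and 222 in Q111, highest in Q50 (against Q20, log2 difference 0.52 ± 0.12 SE, limma adjusted p = 0.0159). The slope of Dync1i2 was -0.03 ± 0.20 SE, limma adjusted p = 0.931. Dync1li2, a light intermediate chain that binds adaptors, was at 192 and 180.1 CPM in WT, 179.7 and 183 in KO, 139.5 and 154 in Q20, 243 and 256 in Q50, 184 and 197 in Q92 and 195 and 223 in Q111, and both Q20 libraries were the lowest. It was called higher than Q20 in Q50 (0.76, adjusted p = 0.00222), Q92 (0.38, adjusted p = 0.0411) and Q111 (0.51, adjusted p = 0.0129). For Q92, the call was lost in 8 of 12 alternative settings. With WT in place of Q20, which is another comparison, the difference was 0.034 (limma adjusted p = 0.875). Dync1li1, its partner gene, ranged over 105 to 142 CPM (slope 0.09 ± 0.13 SE, limma adjusted p = 0.674). Dync1i1, the neuronal intermediate chain, was under the filter in NPC at 0.0967 to 0.785 CPM. In mESC Dync1i1 made up 1.10% to 17.4% of the intermediate chain level per kilobase.

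Dynein-2 returns cargo inside cilia. Dync2h1, its heavy chain, was at 178 and 150.0 CPM in WT, 188 and 149.7 in KO, 131 and 134 in Q20, 129.7 and 126 in Q50, 203 and 204 in Q92 and 158 and 159 in Q111. Q92 was called higher than Q20 (log2 difference 0.61 ± 0.14 SE, limma adjusted p = 0.0127), and the slope was 0.48 ± 0.19 SE, limma adjusted p = 0.106. Dync2li1, the light intermediate chain of dynein-2, was higher in Q20 than in WT at 27.1 and 25.5 against 18.6 and 13.3 CPM (log2 difference 0.70 ± 0.19 SE, limma adjusted p = 0.0426); the call was lost in 7 of 11 alternative settings (adjusted p up to 0.314).

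Of the 8 light chains tested in NPC, 1 was called in the trend, against 22% of all genes. Dynll1, a small dimer shared by dynein and many other proteins, was at 108 and 193 CPM in WT, 129 and 208 in KO, 124 and 67.8 in Q20, 147 and 100.5 in Q50, 196 and 187 in Q92 and 203 and 139 in Q111, with the replicates of Q20, Q50 and Q111 apart and Q50 overlapping both other lines. edgeR did not call it, and the call was lost in 12 of 17 alternative settings (adjusted p up to 0.311). The slope of Dynll1 was 0.99 ± 0.30 SE, limma adjusted p = 0.0479. Dynll2, its close homologue, was at 39.6 and 39 CPM in WT, 35.5 and 37.2 in KO, 50.5 and 55.8 in Q20, 49.4 and 51.3 in Q50, 42.9 and 40.2 in Q92 and 75.4 and 69.8 in Q111, highest in both Q111 libraries (against Q20, log2 difference 0.44 ± 0.12 SE, limma adjusted p = 0.0307). Dynlt3, a light chain of the Tctex family, was at 119.5 and 35 CPM in WT, 124 and 92.3 in KO, 89.2 and 87 in Q20, 66.3 and 68.2 in Q50, 29.6 and 31 in Q92 and 67.6 and 70.5 in Q111, so that WT replicate 2 lay with Q92 and WT replicate 1 with KO (Q92 against Q20, -1.51 ± 0.45 SE, limma adjusted p = 0.0413), and the call was lost in 6 of 12 alternative settings (adjusted p up to 0.176). Dynlt1b, of the 4 near-identical Tctex copies whose reads may be shared among them, was at 205 and 203 CPM in Q20, 84.6 and 104 in Q50 and 141 and 144 in Q111. It was called lower than Q20 in Q50 (-1.11, adjusted p = 0.000924) and Q111 (-0.51, adjusted p = 0.0294).

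Dynactin is a complex whose largest subunit is known to be linked to huntingtin. In the NPC trend limma called 0 of the 6 dynactin genes, against 22% of all genes, with 2 at an unadjusted p under 0.05. edgeR called 0, against 20.7% of all genes, and the median slope was -0.21. Dctn1, that largest subunit, was at 173 and 160.5 CPM in WT, 189.6 and 138 in KO, 149.7 and 149 in Q20, 157 and 169 in Q50, 126 and 135 in Q92 and 154 and 138 in Q111, and the Q20 libraries lay within the span of Q111. The slope of Dctn1 was -0.15 ± 0.14 SE, limma adjusted p = 0.462. Dctn3, a subunit of the shoulder, was at 70.7 and 73.4 CPM in WT, 70.4 and 62.6 in KO, 72.1 and 69.6 in Q20, 50.5 and 55.3 in Q50, 62.4 and 71.7 in Q92 and 49.3 and 50.5 in Q111, lowest in Q111 and Q50, and in Q111 it was called lower than Q20 (log2 difference -0.50 ± 0.13 SE, limma adjusted p = 0.0235). Dctn3 overlaps Il11ra1 on the other strand. The other 4, Dctn2, Dctn4, Dctn5 and Dctn6, had slopes from -0.31 to 0.04. Of the 27 partner genes of motors, such as Pafah1b1, the Hook and Bicd adaptors, Hap1 and the actin-related subunits of dynactin, 6 were called in the NPC trend, 4 rising and 2 falling, with a median of 0.04, against 22% of all genes. edgeR called 8, 4 in each direction, against 20.7% of all genes.

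Taken line by line against Q20 in NPC, 13 motor genes were called in Q50 (5 higher, 8 lower), against 18.8% of all genes (8.05% higher, 10.7% lower). In Q92 15 were called (3 higher, 12 lower), against 25.8% (9.88% higher, 15.9% lower). In Q111 23 were called (7 higher, 16 lower), against 28.3% (12.2% higher, 16.1% lower). The share among the 63 tested members was near that of all genes in the first 2 lines. By role, kinesin-1 gave 4, 5 and 5 of 7, the other transport kinesins 4, 4 and 8 of 14, the kinesins of other uses 2, 3 and 5 of 8. It was 2, 1 and 1 of 4 in dynein-1; dynein-2 gave 0, 1 and 0 of 2, the light chains 1, 1 and 2 of 8, dynactin 0, 0 and 1 of 6 and the mitotic kinesins 0, 0 and 1 of 13. Klc3 differed from Q20 by -1.06, -1.56 and -2.27 in Q50, Q92 and Q111. Kifc2 differed by -1.99, -2.71 and -3.01. Kif6, a kinesin of sperm and ependymal cells, differed by -1.22, -1.68 and -1.44 on the log2 scale, and the differences of all 3 genes were called. Leaving out any 1 library of the groups compared brought the counts to between 7 and 10 in Q50, 8 and 9 in Q92 and 10 and 12 in Q111. With WT as the reference 5 motor genes were called in Q50, 3 in Q92 and 16 in Q111, against 6.62%, 8.66% and 16.6% of all genes. In Q111 against WT these included Kif5a, Kif21a and Kif1a lower and Kif3b, a partner of Kif3a in kinesin-2, higher (1.06, limma adjusted p = 0.00605).

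For the knockout, limma called 0 of 63 motor genes in NPC, with 6 at an unadjusted p under 0.05, and edgeR also called 0. Over all genes 1.42% were called (0.878% higher, 0.545% lower). The smallest p was that of Kif3b, at 52.8 and 57.8 CPM in WT and 87.4 and 97.7 in KO (log2 difference 0.73 ± 0.17 SE, limma adjusted p = 0.0984). Kifc3 was at 16 and 28.1 in WT and 51.7 and 38.6 in KO (1.04 ± 0.26 SE, limma adjusted p = 0.123). Kif21a was at 172 and 62.9 and 42.1 and 28.3 (-1.56 ± 0.40 SE, limma adjusted p = 0.127). In each of the 3 the KO libraries did not overlap those of WT. That was also so for members with large p, such as Dynll2 (limma adjusted p = 0.792) and Dctn3 (limma adjusted p = 0.787). The share of all genes without such overlap was not counted. Without WT replicate 2, 5 were called, Kif3b, Kifc3 and Dync1li1 higher and Kif21a and Kif6 lower, against 11.9% of all genes. Without WT replicate 1, 1 was called, Dynlt3 higher, against 1.11%. The median of the 13 mitotic kinesins was 0.18, beside 0.03 over all genes, and it changed sign with the library left out. It was 0.77 without KO replicate 1, -0.46 without KO replicate 2, -0.52 without WT replicate 1 and 0.85 without WT replicate 2. Among libraries of the same number, their summed level was 795 CPM in WT and 921 in KO for replicate 1, and 2029.7 and 2226 for replicate 2, higher in KO both times. The fits above did not pair libraries by number. With the number as a block over all 6 NPC groups, limma called 0 motor genes for the knockout. A block over KO and WT alone was not tried. In mESC, limma and edgeR each called 0 of 66, 0 had an unadjusted p under 0.05 and 0.0144% of all genes were called. Dctn6 came first, at 17.5 and 19.7 CPM in WT and 25.2 and 28.7 in the libraries labelled KO (0.51 ± 0.23 SE, limma adjusted p = 1.00), followed by Dync2h1 (0.45, adjusted p = 1.00) and Klc1 (0.39, adjusted p = 1.00).

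In the stem cells no comparison called a motor gene without regard to the replicate number. For Q20 against WT limma called 0 of 66, with 10 at an unadjusted p under 0.05, and edgeR called 0 with 10. Over all genes 0.323% were called by limma (0.259% higher, 0.0647% lower) and 0.0862% by edgeR. For Q50, Q92 and Q111 against Q20 and for the trend it also called 0, with 2, 2, 2 and 3 at an unadjusted p under 0.05 (2, 2, 2 and 2 in edgeR), against 0.00719%, 0.00719%, 0% and 0% of all genes. Libraries of the same number deviated together in mESC, and with the number as a block 6 motor genes were called for Q20 against WT, against 10.6% of all genes. These were Kif1a higher and Kif5b, Kif11, Kif14, Kif22 and Dync1i1 lower. Kif11 was at 530.4 and 423 CPM in WT and 381 and 300.2 in Q20 (log2 difference -0.48 ± 0.20 SE, limma adjusted p = 0.356, and adjusted p = 0.0237 with the block). Kif5b was at 518 and 483 and 383 and 357 (-0.43 ± 0.14 SE, limma adjusted p = 0.239, and 0.0349 with the block). Kif1a was at 11 and 3.45 CPM in WT, 31.2 and 5.49 in KO, 70.1 and 30.9 in Q20, 56.7 and 19.2 in Q50, 28 and 15.1 in Q92 and 61.3 and 16.8 in Q111, highest in replicate 1 of every genotype. The WT libraries were the lowest of each number (Q20 against WT, 2.70 ± 0.94 SE, limma adjusted p = 0.281, and 0.00714 with the block). Beside these, the 7 fibroblast markers summed to 19.3 and 31.7 CPM in WT and 62 and 92.9 in Q20, and the 8 progenitor markers to 139 and 193 and 336 and 532; their part in the result was not tested. In the trend Kif5b had the smallest p of the motor genes, with a slope of 0.40 ± 0.13 SE, limma adjusted p = 1.00. With the block Kifc3 was called higher in Q50 than in Q20 (1.13, limma adjusted p = 0.0415), against 0.984% of all genes.

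The mitotic kinesins of the stem cells had a median slope of 0.03, between -0.09 and 0.23, and the ratio of Q111 to Q20 means ran from 0.932 in Kifc1 to 1.10 in Kif14. Summed over the 13 genes they were at 3102 and 2575 CPM in WT, 2404 and 2142 in Q20 and 2375 and 2195 in Q111. The other members fixed for description ranged, over the 12 mESC libraries, as follows by role. Among mitotic kinesins Kif23 ranged over 152 to 292 CPM, Kif2c over 177 to 259 CPM, Kif4 over 99.1 to 175 CPM, Kif20b over 239 to 438 CPM and Kifc1 over 74.7 to 150.5 CPM. In kinesin-1, Kif5a ranged over 12.2 to 23.2 CPM, Kif5c over 41.6 to 76.3 CPM, Klc1 over 30.1 to 43.9 CPM and Klc2 over 17.7 to 31.5 CPM. Of the transport kinesins, Kif1b ranged over 80.4 to 115 CPM, Kif3a over 23.7 to 59.1 CPM, Kif13a over 79.5 to 112 CPM, Kif21a over 12.3 to 63.8 CPM and Kif21b over 8.21 to 38.5 CPM, and the ciliary Kif7 over 21.8 to 44.9 CPM and Kif27 over 0.683 to 2.21 CPM. The dynein heavy chains Dync1h1 and Dync2h1 ranged over 716 to 1255 CPM and 43.7 to 78.8 CPM, Dync1i2 over 110.0 to 145 CPM and Dync1li1 over 109.6 to 169.7 CPM. The light chains Dynll1, Dynll2 and Dynlt3 ranged over 136 to 233 CPM, 23.5 to 103 CPM and 8.95 to 43 CPM, and dynactin's Dctn1 and Dctn3 over 59 to 124 CPM and 42.6 to 62.5 CPM.

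Per kilobase of exon, the 6 motor genes with the highest median level over the 12 NPC libraries were Dynlt1b (232), Dync1h1 (103), Dynlrb1 (79), Kif5b (73.6), Dctn3 (63.4) and Dctn2 (46.9), in CPM per kilobase. In mESC they were Dynlt1b (176), Kif20a (92), Kif5b (59.6), Kif11 (55.5), Dync1h1 (53.7) and Dctn3 (52.6). Dynlt1b is 1 of the near-identical copies, and the tables were scaled separately, so no difference in level between cell types was tested. Within the kinesin-3 genes Kif1a, Kif1b and Kif1c, the Kif1a share of the level per kilobase was 33.1% to 57.7% in NPC and 3.03% to 33.9% in mESC. Within Kif3a, Kif3b and Kif3c, the neuronal Kif3c took 29.5% to 48.7% in NPC and 6.22% to 16.6% in mESC, ranges that do not overlap.

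The slopes on repeat length were compared between the cell types as an interaction over the 16 knock-in libraries. Of the 63 motor genes tested 11 differed, against 4.86% of all 12321 genes (2.7% higher in NPC, 2.16% lower). By role, 6 of the 13 mitotic kinesins had a higher slope in NPC (Kif2c, Kif4, Kif11, Kif15, Kif18a and Kif23), and Kif5a, Klc4, Kifc2, Kif16b and Kif26b a lower one. Over dynein-1, dynein-2, the light chains and dynactin limma called 0 of 20, with 3 at an unadjusted p under 0.05; this comparison was not run in edgeR. Leaving out NPC Q20 replicate 1 gave 6 calls, and leaving out NPC Q20 replicate 2, NPC Q111 replicate 2 or mESC Q111 replicate 2 gave 7. With 1 mean value per line limma called 0, although 16 had an unadjusted p under 0.05.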

How the data were processed

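RNA sequencing (TRIzol RNA, paired reads of 75 bases on a NextSeq 500, per the labels' protocols) was deposited as 1 expression table per cell type. Reads were aligned with STAR to GRCm38.p6 after CASAVA 1.8, per the submitters' processing notes; the counting tool, its use of strand and the scaling are not given in the sources used here. The deposited values are a signal scaled by the authors and named CPM in the files, per the file headers; column totals ran from 900342 to 1080734, and dividing by the value of 1 read gave whole reads for all values (within 0.01). Rows without a gene name (1 in NPC, 4 in mESC) were left out.

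Differences were tested per cell type with limma 3.58.1 (R 4.3.3, intensity-dependent prior) on log2(CPM + 1) over genes with at least 1 CPM in at least 2 libraries, with Benjamini-Hochberg adjustment over all of them. Comparisons of groups used 6 group means over 12 libraries; the trend used the 8 knock-in libraries; the slope difference was an interaction of cell type and repeat number. Comparisons against WT, and those against Q20, share those libraries. edgeR 4.0.16 on recovered reads was an alternative; the fitting code was tested on simulated data. Gene lengths and overlaps came from GENCODE M21. Libraries of the same number deviated together in mESC (15 of 15 correlations of deviations between 0.25 and 0.55), so the replicate block is given there; in NPC 3 of 15 passed 0.1, the highest being 0.467 between KO and WT.

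Members, roles and lists were chosen with earlier results of these data known. A fixed set of members was always described; in each comparison up to 3 called members per role were named, by fold and without overlap between groups, or by p in the trend, and where none was called the 3 with the smallest p. Other members named were chosen after their values were seen.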

Additional observations from a re-analysis of the deposited data

Results flagged for a closer look

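The slope of expression on CAG repeat number differed between NPC and mESC for 11 motor genes by the interaction term of limma over the 16 knock-in libraries. Among the mitotic kinesins the NPC slope was higher by 1.41 in Kif18a (adjusted p = 0.0416), 1.20 in Kif15 (0.0167), 1.17 in Kif23 (0.0207), 1.08 in Kif4 (0.0258), 1.06 in Kif11 (0.0194) and 0.96 in Kif2c (0.0207), as limma log2 differences over 91 repeats. The difference was negative in Kif5a at -2.66 (limma adjusted p = 0.00946) and in Klc4 at -1.45 (0.00635), both of kinesin-1. It was also negative in Kifc2 at -2.64 (limma adjusted p = 0.00941), in Kif26b at -1.36 (0.0364) and in Kif16b at -0.87 (0.0484). Of 21 alternative settings the call was lost in 14 for Kif16b and 9 for Kif26b, in 2 for Kif11, and in 1 each for Kif15, Kif2c, Klc4, Kif5a and Kifc2. A test for libraries that stand out needs groups of at least 4, and each group here held 2.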

How the results depend on the processing

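Of 99 alternative settings for the counts of motor genes called, other than leaving out a library, 86 stayed within 1.5 times the reported count. Counts of 0 that stayed at 0 are included among these, as in most mESC settings. Of the settings that left out a library, 51 stayed within that bound and 21 did not. With the replicate block, 6 motor genes were called in mESC Q20 against WT and 1 in mESC Q50 against Q20. The block changed no other count by more than 1.5 times. In the NPC knock-in lines, where the numbers were not shown to pair libraries, the trend gave 22. In NPC KO and WT libraries of the same number did deviate together (correlation 0.467), and a block over KO and WT alone was not tried. A minimum mean of 5 CPM gave 2 in NPC Q20 against WT and 8 each in Q50 and Q92 against Q20. Low members such as Kifc2, Kif26a and Klc3 were then not tested. In Q20 against WT and in Q92 against Q20, members still tested also lost their call, such as Dync2li1 in Q20 against WT. Fitted on the compared libraries alone, the NPC counts were 2 (Q20 against WT), 24 (Q50), 35 (Q92) and 47 (Q111 against Q20). With WT as the reference they were 5 (Q50) and 3 (Q92), and these differences turned positive: Kif5c 0.44, 0.27 and 0.99 and Kif26a 0.97, 0.47 and 0.14 in Q50, Q92 and Q111, and Klc3 0.45 in Q50; the cause was not tested. With 1 mean value per line, 0 were called in the NPC trend (17 at an unadjusted p under 0.05) and 0 in the slope difference (16), with fewer values in the fit.

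Leaving out 1 library gave 0 to 5 in NPC KO against WT, 4 to 13 in Q20 against WT, 7 to 10, 8 to 9 and 10 to 12 in Q50, Q92 and Q111 against Q20, 16 to 27 in the trend and 6 to 11 in the slope difference. In the trend the counts furthest from 28 came without Q20 replicate 1 (16), Q20 replicate 2 (16) and Q111 replicate 1 (18); the mESC counts stayed at 0. A left-out library leaves its group with 1 sample, which is then assumed to vary like the others. Over 66 named results and 895 alternatives, 723 kept the call, 165 lost it and 7 reversed. For comparisons against Q20 these alternatives include WT as the reference, which is another comparison, and the 7 reversals came with it. Genes near 1 CPM rest on few reads, and 2 libraries a group limit every test.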
